A study of Mus musculus with 6 samples.

Results

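The collagen genes and the genes for the enzymes and the chaperone that process collagen chains were followed in 344SQ cells whose Pik3ca had been targeted by RNA interference. Members were all probe sets annotated with exactly 1 gene symbol, where that symbol was a collagen chain gene, a lysyl oxidase gene (Lox and the Loxl genes), a prolyl 4-hydroxylase alpha subunit gene (P4ha1 to P4ha3), a lysyl hydroxylase gene (Plod1 to Plod3) or Serpinh1. The rule, which used names and no measured value, found 101 of 45037 probe sets, belonging to 53 of 18193 genes. Of the 53 genes, 42 encode collagen chains and 11 encode enzymes or the chaperone. Col6a6, Col28a1 and Loxl2 had no probe set under the rule. The 2 probe sets that name Loxl2 also name Gm21451 and were not used.

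344SQ is a mouse lung adenocarcinoma line, derived from a metastasis in a mouse model of the disease. The PIK3CA shRNA cells received a vector for a short hairpin RNA (shRNA) against PIK3CA, the gene of the p110-alpha catalytic subunit of phosphoinositide 3-kinase, and the other cells a control shRNA vector, in both cases by lipid transfection and in RPMI medium with serum. Each group had 3 samples, each on 1 biotin-labelled Affymetrix mouse array. The labels state no number of hairpins, no selection or cloning and no separate cultures, so the p-values below reflect the spread among these 3 samples a group and may be blind to variation between cultures.

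Collagens are extracellular proteins of 3 chains wound into a triple helix. In the endoplasmic reticulum prolyl 4-hydroxylases and lysyl hydroxylases modify the chains, and the chaperone HSP47, the product of Serpinh1, holds the folded helix until export. Outside the cell lysyl oxidases start the cross-linking of the chains. Type IV collagen forms the network of basement membranes, on which epithelial cells rest, while fibrillar collagens make the fibres of the stroma and are made mainly by fibroblasts.

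The 6 arrays had median intensities of 134.1 to 134.7. Pik3ca gave intensities of 1249, 1237 and 1220 in PIK3CA shRNA cells, against 2450, 2324 and 2364 in control shRNA cells. The groups did not overlap, and the PIK3CA shRNA mean was 51.9% of the control shRNA mean (log2 change -0.94, SE 0.05, limma adjusted p = 0.000762). Changes are given as PIK3CA shRNA minus control shRNA in log2(intensity + 16) units, so that changes of dim genes come out too small. Each gene was read from the probe set with the highest mean log2 value over all arrays and was called past a threshold of adjusted p 0.05 in limma over all 18193 genes. Of 8 epithelial markers, 5 were above the median intensity of all genes, and their summed intensity was 43394 to 44109 in PIK3CA shRNA cells and 42396 to 45213 in control shRNA cells. The epithelial regulator Esrp1 was among the dimmest, with a mean of 4.83 in PIK3CA shRNA cells and 4.53 in control shRNA cells. None of the 12 fibroblast markers other than collagens was above the median intensity. Their sum was 692 to 1003 in PIK3CA shRNA cells and 784 to 906 in control shRNA cells. Pdgfrb, the only 1 of the 12 with a mean below 16, averaged 4.87 in PIK3CA shRNA cells and 6.37 in control shRNA cells. Of these 12, 4 were lower in PIK3CA shRNA cells without overlap and 0 higher, against 17.0% and 16.1% of all genes. The changes of the 12 ran from -0.75 to 0.60, with 4 above 0 and 8 below. Their median was -0.14, against -0.01 over all genes. The sums of 7 endothelial markers were 684 to 805 in PIK3CA shRNA cells and 680 to 720 in control shRNA cells, and those of 6 leukocyte markers 627 to 875 in PIK3CA shRNA cells and 638 to 856 in control shRNA cells.

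Serpinh1 rose most of the members and Col4a5 fell most. The members that rose were Serpinh1, Col18a1, Col25a1, Col27a1 and Col20a1. The members that fell were Col4a5, Col4a4, Col6a2, Col6a1, Col5a1 and Plod1. In all, 11 of 53 member genes (20.8%) were called, 5 higher and 6 lower, against 11.5% of all genes, of which 5.88% were called higher and 5.62% lower. The median change was -0.09 over the members and -0.01 over all genes tested. The groups did not overlap for 20 of 53 members, 9 higher and 11 lower, against 33.1% of all genes, 16.1% higher and 17.0% lower. Read by probe set, 12 of 101 member probe sets were called, 7 higher and 5 lower, against 4.94% of all probe sets, of which 2.64% were higher and 2.30% lower. The groups did not overlap for 30 of the 101, against 27.3% of all probe sets, 13.0% higher and 14.2% lower.

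**Figure D1:**
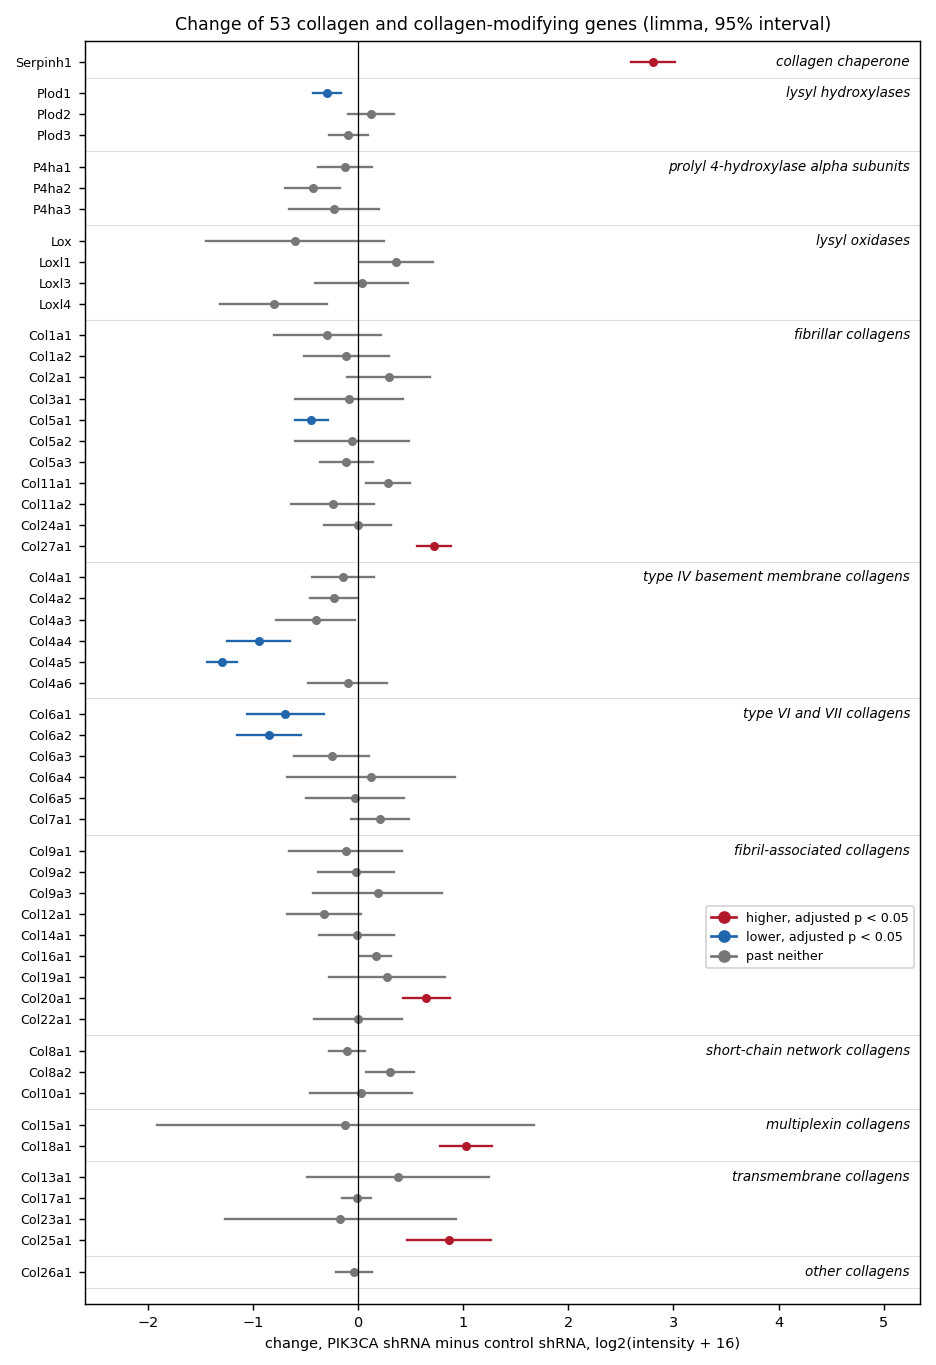
Change of each of the 53 member genes between PIK3CA shRNA and control shRNA arrays on the log2(intensity + 16) scale, grouped by role, with 95% intervals from limma. Red points passed adjusted p 0.05 as higher, blue points as lower and grey points as neither. Serpinh1 stands at 2.81, Col4a5 at -1.30, and all 6 type IV chains lie below 0, as do 9459 of all 18193 genes.

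Most member genes were dim. Of the 53, 18 were above the median intensity of all genes, 251, and 4 (Col2a1, Col9a2, Col10a1 and Col17a1) had a mean below 16 over the 6 arrays. Among the 18 brighter members 8 were called (44.4%), against 17.8% of all genes above that median. Among the 35 others 3 were called (8.57%), against 5.20% of all genes at or below it. Col17a1, the hemidesmosomal collagen of basal epithelium, had intensities between 3.52 and 4.73 on all 6 arrays.

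**Figure D2:**
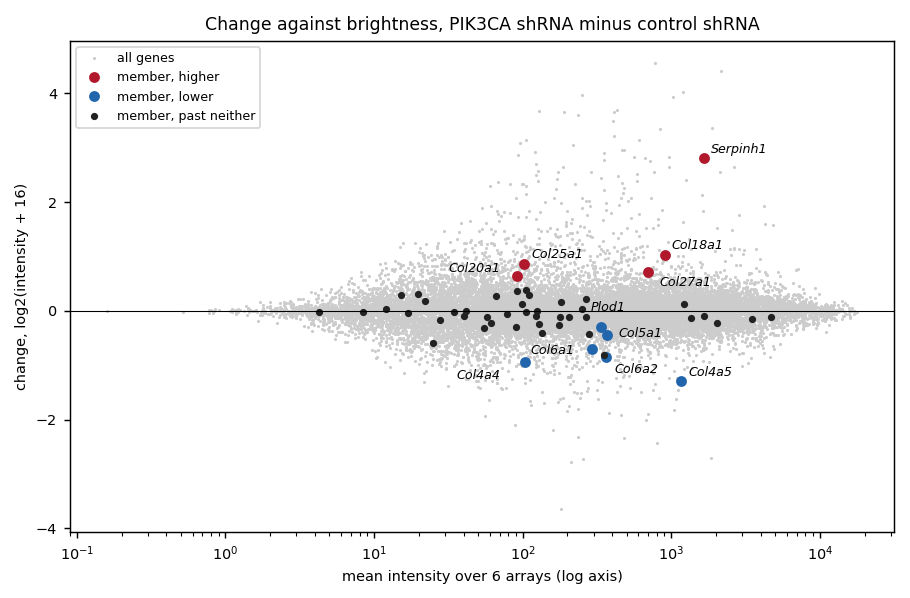
Change on the log2(intensity + 16) scale (PIK3CA shRNA minus control shRNA) against the mean intensity over the 6 arrays (log axis) for 18193 genes, with the 53 members drawn large. The called members are named: Serpinh1 combines a high intensity with a change of 2.81, while most uncalled members lie near 0 at low intensity.

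The collagen chaperone gene Serpinh1 was several-fold higher in PIK3CA shRNA cells by both of its probe sets. The probe set used for the gene, of the x_at class, gave intensities of 2813, 3170 and 2790 in PIK3CA shRNA cells, against 409, 374 and 427 in control shRNA cells. The other, of the a_at class, gave 3934, 4098 and 4000 in PIK3CA shRNA cells, against 260, 307 and 213 in control shRNA cells. On both, every PIK3CA shRNA array was far above every control shRNA array. The means of the probe set used were 2924 ± 213 in PIK3CA shRNA cells and 403 ± 26.9 in control shRNA cells (SD, n = 3 each), a 7.25-fold difference, with a log2 change of 2.81 (SE 0.08, 95% interval 2.60 to 3.02, limma adjusted p = 0.000115). For the other the ratio was 15.4-fold and the log2 change 3.88 (SE 0.14, adjusted p = 0.000277 over all probe sets). Serpinh1 ranked 27 of 18193 genes by the size of its rise. An x_at suffix marks a probe set that can also bind other transcripts, and the probe sets differed in size but not in direction. In cultures measured in bulk, more RNA per cell and more cells with the RNA cannot be told apart, which holds for every change given here.

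None of the genes beside Serpinh1 passed the test. The 5 tested genes on each side had changes of -0.47 to 0.41 with a median of -0.04, and 0 of the 10 were called by limma at adjusted p 0.05. Serpinh1 lies on chromosome 7, whose 1420 tested genes had a median change of 0.01. Its promoter is shown because HSP47 is known as a heat-inducible protein. The sequence runs 5′ to 3′ from 250 bases before to 50 bases after the start of transcription at chr7:99353190-99353489, minus strand, in RefSeq's GRCm38.p6 table. Capitals mark CCAAT boxes (CCAAT or ATTGG) and GC boxes (GGGCGG or CCGCCC).
Serpinh1: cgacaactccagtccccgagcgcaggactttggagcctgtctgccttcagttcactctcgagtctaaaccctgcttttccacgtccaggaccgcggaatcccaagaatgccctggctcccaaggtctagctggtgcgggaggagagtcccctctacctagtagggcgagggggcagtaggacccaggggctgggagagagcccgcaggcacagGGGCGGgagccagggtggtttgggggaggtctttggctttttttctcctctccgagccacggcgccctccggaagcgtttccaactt
The window held 1 GC box, 37 bases before the start, and no CCAAT box. It held neither arrangement of the heat shock element searched, GAANNTTC or TTCNNGAA, and no TATAAA on either strand, which says only that these letters are not in this window. Both heat shock arrangements read the same on the opposite strand. Of 32851 mouse promoters of the same length, 7.86% held GAANNTTC and 8.52% held TTCNNGAA.

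Of the type IV collagen chains, the network formers of the basement membrane, 2 of 6 fell, 0 rose, and the median change was -0.32, against -0.01 over all genes. Called lower were 5.62% of all genes and called higher 5.88%. All 6 chains had changes below 0, as did 9459 of all 18193 genes. Those that fell were Col4a5 and Col4a4, chains of the network found in the kidney glomerulus and some other epithelia. The main chains of most basement membranes, Col4a1 and Col4a2, did not pass the test.

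Col4a5 gave intensities of 667, 664 and 670 in PIK3CA shRNA cells, against 1590, 1675 and 1727 in control shRNA cells. The PIK3CA shRNA arrays lay close together and well below all control shRNA arrays. The means were 667 ± 3.31 in PIK3CA shRNA cells and 1664 ± 68.8 in control shRNA cells (SD, n = 3 each), so PIK3CA shRNA cells had 40.1% of the control shRNA level, with a log2 change of -1.30 (SE 0.06, limma adjusted p = 0.000339). Its second probe set gave 210, 213 and 292 in PIK3CA shRNA cells, against 384, 393 and 459 in control shRNA cells, again with no overlap (log2 change -0.76, limma adjusted p = 0.0517 over all probe sets). By the size of its fall Col4a5 ranked 56 of 18193 genes.

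Col4a4 was dim, with intensities of 59.4, 77.4 and 61.5 in PIK3CA shRNA cells, against 155, 124 and 148 in control shRNA cells. Here too the groups did not overlap, and the mean was 66.1 ± 9.84 in PIK3CA shRNA cells and 142 ± 16.2 in control shRNA cells (SD, n = 3 each), a log2 change of -0.95 (SE 0.12, limma adjusted p = 0.00952). A second probe set was close to or below 16 in PIK3CA shRNA cells, at 9.27, 13.9 and 16.7, against 164, 67.6 and 68.4 in control shRNA cells (log2 change -1.90, limma adjusted p = 0.0350 over all probe sets). The third, dimmer still, overlapped between the groups. Col4a3, whose product joins the same network as those of Col4a4 and Col4a5, gave 118, 129 and 96.0 in PIK3CA shRNA cells, against 130, 158 and 182 in control shRNA cells. Its arrays did not overlap, but it did not pass the test (log2 change -0.40, limma adjusted p = 0.166).

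Col4a1 gave 3007, 3597 and 3260 in PIK3CA shRNA cells, against 3299, 3470 and 4161 in control shRNA cells, and the groups overlapped (log2 change -0.14, 95% interval -0.44 to 0.15, limma adjusted p = 0.518). For Col4a2 the values were 1763, 1864 and 1928 in PIK3CA shRNA cells, against 1996, 2124 and 2435 in control shRNA cells, without overlap (log2 change -0.23, 95% interval -0.463 to -0.003, limma adjusted p = 0.188). With each chromosome's median change taken out, Col4a1 stood at 0.06 and Col4a2 at -0.03. Col4a6 overlapped between the groups, with 141, 110 and 102 in PIK3CA shRNA cells and 150, 117 and 114 in control shRNA cells (log2 change -0.10, 95% interval -0.48 to 0.28, limma adjusted p = 0.742).

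The type IV genes lie in head-to-head pairs that share the region between their starts, and the promoters of both pairs covered by the RefSeq table are shown for that reason. Each runs 5′ to 3′ on its gene's own strand, with CCAAT and GC boxes in capitals. Col4a1 lies at chr8:11312777-11313076, minus strand, and Col4a2 at chr8:11312555-11312854, plus strand. Col4a5 lies at chrX:141475169-141475468, plus strand, and Col4a6 at chrX:141474027-141474326, minus strand, all in GRCm38.p6.
Col4a5: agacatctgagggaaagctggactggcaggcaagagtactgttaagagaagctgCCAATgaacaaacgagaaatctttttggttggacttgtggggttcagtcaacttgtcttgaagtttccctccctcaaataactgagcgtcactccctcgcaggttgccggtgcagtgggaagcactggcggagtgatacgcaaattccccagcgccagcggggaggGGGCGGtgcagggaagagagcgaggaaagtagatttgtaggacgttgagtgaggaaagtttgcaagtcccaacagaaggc
Col4a6: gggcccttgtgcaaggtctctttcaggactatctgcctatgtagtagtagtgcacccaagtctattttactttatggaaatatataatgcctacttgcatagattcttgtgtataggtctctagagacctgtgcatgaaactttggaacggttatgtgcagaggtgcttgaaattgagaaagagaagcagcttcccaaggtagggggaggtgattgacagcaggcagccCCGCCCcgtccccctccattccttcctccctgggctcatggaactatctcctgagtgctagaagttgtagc
Col4a1: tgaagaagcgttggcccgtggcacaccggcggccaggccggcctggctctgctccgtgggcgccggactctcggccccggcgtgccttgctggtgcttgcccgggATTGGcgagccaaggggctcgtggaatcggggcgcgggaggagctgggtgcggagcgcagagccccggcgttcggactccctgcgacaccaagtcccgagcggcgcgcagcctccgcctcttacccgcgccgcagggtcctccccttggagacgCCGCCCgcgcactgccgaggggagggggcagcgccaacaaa
Col4a2: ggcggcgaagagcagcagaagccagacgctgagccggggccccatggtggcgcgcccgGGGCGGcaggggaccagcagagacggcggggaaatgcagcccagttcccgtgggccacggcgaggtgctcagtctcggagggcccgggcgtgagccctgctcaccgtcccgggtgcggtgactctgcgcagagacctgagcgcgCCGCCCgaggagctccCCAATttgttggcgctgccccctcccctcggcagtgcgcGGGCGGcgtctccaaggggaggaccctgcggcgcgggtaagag
In that table the starts of Col4a1 and Col4a2 were 21 bases apart, so the windows overlap, and those of Col4a6 and Col4a5 were 1343 bases apart. Col4a5 had a CCAAT box 196 bases and a GC box 30 bases before its start, and GAAGTTTC, a match to the heat shock arrangement, 137 bases before it. The Col4a6 window held 1 GC box, 21 bases before the start. The windows of Col4a1 and Col4a2 were richer in G and C (74.0% and 73.7%) than those of Col4a5 (52.7%) and Col4a6 (48.3%), and the median of all promoters was 52.7%. Each match is a description of letters and not a binding site.

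Within a pair the chains could differ in their change, which was tested on the ratio of their intensities on each array. Col4a5 fell relative to Col4a6 by 1.20 on the log2 scale, with no overlap of the ratios. The exact two-sided permutation p was 0.1, the smallest that 3 against 3 arrays allow (0.15 adjusted over 6 pairs of members). The gap between the groups in Col4a5 was wider than the spread of Col4a6 over all arrays. Separate ratios and that p were therefore fixed in advance, so the Col4a5 and Col4a6 test adds nothing to the results of the single genes. Col4a3 over Col4a4 differed by 0.54 (exact permutation p = 0.1, adjusted 0.15). Col4a1 over Col4a2 differed by 0.09 (exact permutation p = 0.3, adjusted 0.36). This exact test cannot go below 0.1 for any pair.

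**Figure D3:**
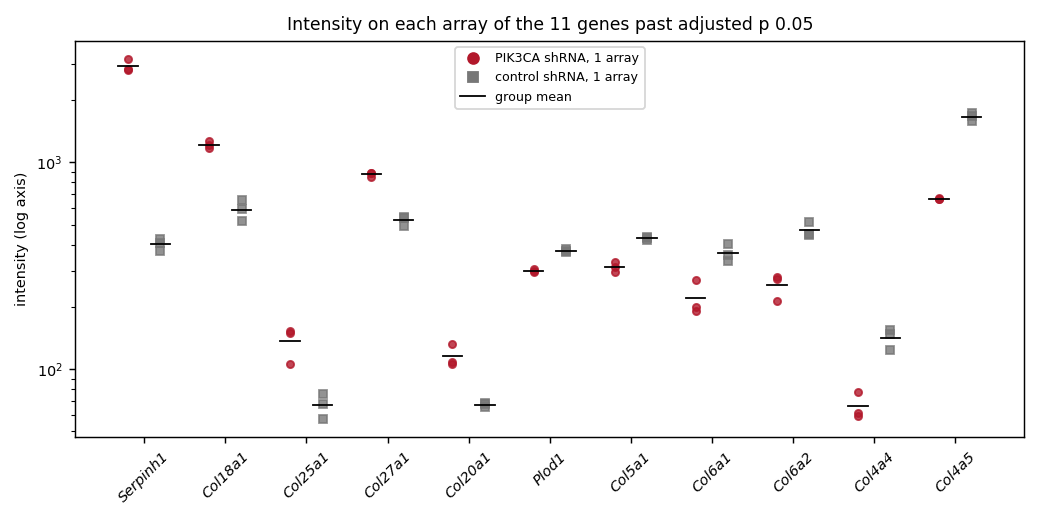
Intensity on each array (log axis) of the 11 called members, PIK3CA shRNA (red circles) left of control shRNA (grey squares), with the group mean as a bar. In each of the 11 genes the groups do not overlap, and the widest gap is that of Serpinh1, 2813, 3170 and 2790 against 409, 374 and 427.

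Col18a1, the basement membrane collagen whose C-terminal fragment is endostatin, rose. It gave 1210, 1173 and 1264 in PIK3CA shRNA cells, against 597, 518 and 656 in control shRNA cells. The means were 1216 ± 45.7 in PIK3CA shRNA cells and 590 ± 69.1 in control shRNA cells (SD, n = 3 each), a 2.06-fold difference without overlap (log2 change 1.03, SE 0.10, limma adjusted p = 0.00393). Its second probe set gave 982, 720 and 879 in PIK3CA shRNA cells, against 416, 426 and 530 in control shRNA cells (log2 change 0.89, limma adjusted p = 0.0355 over all probe sets). Col15a1, the other multiplexin, had 1 array far above the rest in each group, replicate 2 in both. It gave 19.9, 116 and 25.6 in PIK3CA shRNA cells and 28.6, 131 and 22.8 in control shRNA cells, so its change had a standard error of 0.72.

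The type VI chains Col6a1 and Col6a2, which assemble into beaded microfilaments around cells, fell, while 4 of the 6 measured members of the group of types VI, VII and XXVIII did not pass the test. The median change of these 6 was -0.14, and 33.3% of them were called, against 11.5% of all genes. Col6a2 gave 214, 280 and 271 in PIK3CA shRNA cells, against 452, 512 and 446 in control shRNA cells (log2 change -0.85, SE 0.12, limma adjusted p = 0.0129), and the groups lay well apart. Its x_at probe set overlapped between the groups, with a change of -0.29. Col6a1 had 190, 201 and 269 in PIK3CA shRNA cells, against 333, 357 and 401 in control shRNA cells, without overlap (log2 change -0.70, SE 0.15, limma adjusted p = 0.0389). The Col6a1 call was lost without any 1 control shRNA array and without PIK3CA shRNA replicate 1 or 2, with limma adjusted p up to 0.116. Without control shRNA replicate 2 the limma adjusted p of Col6a2 was 0.0509. Col6a3, the third chain of the main trimer, did not pass (log2 change -0.25, limma adjusted p = 0.345).

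Col18a1, Col6a1 and Col6a2 lie within 5 tested genes of one another on chromosome 10 and moved in opposite directions. The difference in change was 1.72 between Col18a1 and Col6a1 and 1.88 between Col18a1 and Col6a2. The exact two-sided permutation p was 0.1 for each, adjusted 0.15 over the 6 pairs. Without overlap, Col18a1 was higher and both Col6 genes were lower in PIK3CA shRNA cells. Separate per-array ratios and a p of 0.1 were therefore fixed in advance, so this test adds nothing to the results of the single genes. Col6a1 and Col6a2, neighbours of each other, differed by 0.15 (exact permutation p = 0.5). Of the 10 genes around Col18a1 only these 2 were called, and the median of the 10 was 0.01. The 10 genes around Col4a5, Col4a6 among them, had a median change of -0.07 with 0 called by limma at adjusted p 0.05.

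**Figure D4:**
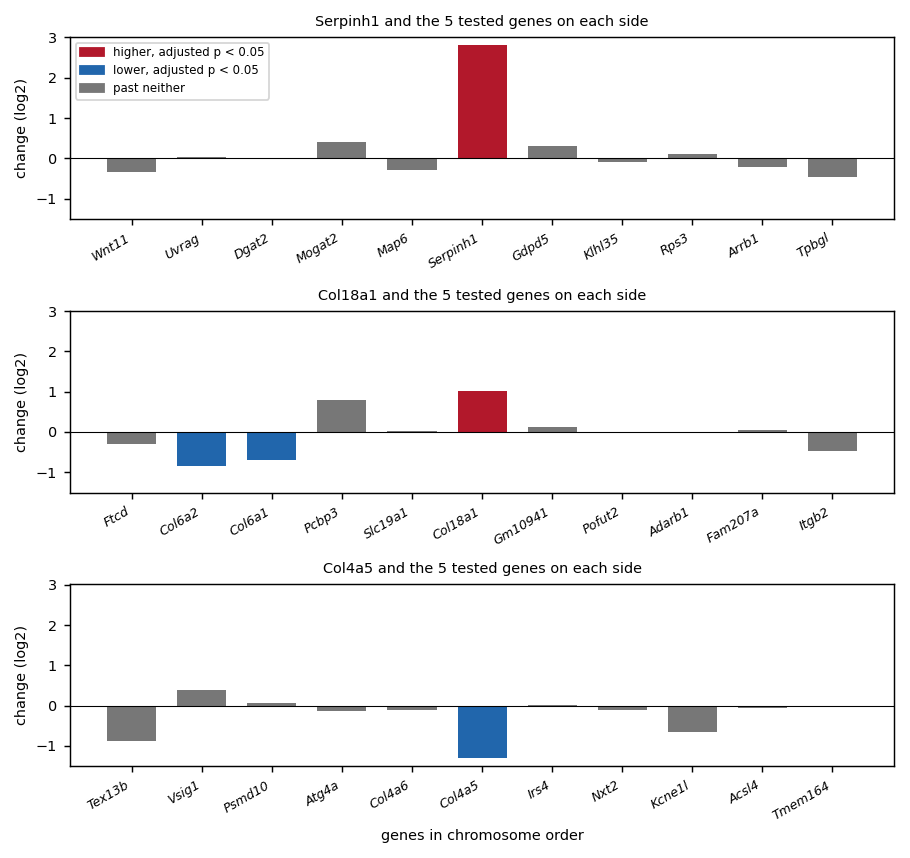
Change on the log2(intensity + 16) scale (PIK3CA shRNA minus control shRNA) of Serpinh1, Col18a1 and Col4a5 and the 5 tested genes on each side of them in chromosome order. Bars start at 0, red marks called higher, blue called lower and grey neither. Serpinh1 and Col4a5 are the only called genes of their rows, while Col18a1, at 1.03, shares its row with Col6a1 and Col6a2 below 0.

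Among the 11 fibrillar chains 1 rose and 1 fell (18.2% called, against 11.5% of all genes), with a median change of -0.09. Col27a1, a fibrillar collagen known from cartilage, gave 846, 887 and 892 in PIK3CA shRNA cells, against 495, 545 and 536 in control shRNA cells, with wide separation. The means were 875 ± 25.3 in PIK3CA shRNA cells and 525 ± 26.5 in control shRNA cells (SD, n = 3 each), a log2 change of 0.72 (SE 0.06, limma adjusted p = 0.00330). Its other probe set showed a change of 0.19 and did not pass (limma adjusted p = 0.389 over all probe sets). On the mean of the Col27a1 probe sets the change was 0.46. Col5a1, which helps start and size collagen I fibrils, gave 328, 312 and 294 in PIK3CA shRNA cells, against 436, 422 and 431 in control shRNA cells (log2 change -0.45, SE 0.06, limma adjusted p = 0.0128), and every PIK3CA shRNA array was lower. Leaving out control shRNA replicate 1 or 3 gave Col5a1 a limma adjusted p of 0.0525 or 0.0502, and on the mean of its probe sets it was 0.0926. In all, the Col5a1 call was lost in 5 of 17 alternatives, with limma adjusted p up to 0.143.

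The chains of the abundant stromal fibrils were below the median intensity of all genes, Col1a2 not far below it, and did not pass the test. Col1a1 gave 82.0, 99.6 and 59.0 in PIK3CA shRNA cells, against 80.2, 122 and 102 in control shRNA cells (log2 change -0.29, 95% interval -0.80 to 0.22). Col1a2 gave 185, 248 and 158 in PIK3CA shRNA cells, against 216, 194 and 223 in control shRNA cells (log2 change -0.11, interval -0.52 to 0.30). Dimmer was Col3a1, at 27.3, 51.4 and 36.8 in PIK3CA shRNA cells against 30.8, 51.0 and 43.1 in control shRNA cells (log2 change -0.09, interval -0.61 to 0.43). The groups overlapped for all 3 genes, and the part that the fibroblast marker levels given above play in them was not tested. Col11a1, a minor chain of cartilage fibrils, was higher on every PIK3CA shRNA array at 117, 114 and 135, against 91.7, 104 and 96.1 in control shRNA cells, without passing (log2 change 0.29, limma adjusted p = 0.0973).

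Of the 9 fibril-associated collagens, which sit on the surface of fibrils, 1 rose and 0 fell (11.1% called, against 11.5% of all genes). The median was 0.00. The gene that rose was Col20a1, with 108, 132 and 106 in PIK3CA shRNA cells, against 68.2, 65.6 and 68.5 in control shRNA cells, without overlap (log2 change 0.65, SE 0.09, limma adjusted p = 0.0121). Its other 3 probe sets were dimmer and overlapped between the groups. Chromosome 2, which carries it, had a median change of 0.12, and with chromosome medians taken out its change was 0.51 (limma adjusted p = 0.0254). Without control shRNA replicate 2 its limma adjusted p was 0.0524, and on the mean of the Col20a1 probe sets the change was 0.29 (limma adjusted p = 0.0712). Col16a1 did not overlap, at 185, 199 and 197 in PIK3CA shRNA cells against 165, 171 and 175 in control shRNA cells, and did not pass (log2 change 0.17, limma adjusted p = 0.151).

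Of the 4 transmembrane collagens 1 rose (25.0% called, against 11.5% of all genes). Col25a1, known in the nervous system and in motor innervation of muscle, gave 150, 153 and 106 in PIK3CA shRNA cells, against 68.0, 75.8 and 57.5 in control shRNA cells, without overlap (log2 change 0.86, SE 0.16, limma adjusted p = 0.0272). Its second probe set did not share the direction (-0.04), and the call was lost when any array but PIK3CA shRNA replicate 3 was left out, with limma adjusted p of 0.0647 to 0.0905. On the mean of the Col25a1 probe sets the change was 0.41 (limma adjusted p = 0.209). Col13a1, of the same group, overlapped (log2 change 0.38, 95% interval -0.49 to 1.25).

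None of the 3 short-chain network collagens was called by limma. Col8a1, a chain of subendothelial matrix, was the brightest member gene by intensity, although levels of different probe sets cannot be compared as amounts of RNA. It gave 4244, 4676 and 4637 in PIK3CA shRNA cells, against 4817, 4709 and 5089 in control shRNA cells (log2 change -0.11, SE 0.07, limma adjusted p = 0.398). All 3 of its probe sets were lower on every PIK3CA shRNA array without passing, the others with changes of -0.27 (limma adjusted p = 0.0919) and -0.25 (limma adjusted p = 0.207). Its partner Col8a2 was dim, with 18.9, 26.5 and 25.0 in PIK3CA shRNA cells against 15.7, 14.9 and 17.3 in control shRNA cells (log2 change 0.30, limma adjusted p = 0.107).

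Of the 10 modifying enzymes 0 rose and 1, Plod1, fell, against 5.88% and 5.62% of all genes. Plod1, a lysyl hydroxylase acting on the helical part of the chain, gave 295, 298 and 306 in PIK3CA shRNA cells, against 381, 367 and 371 in control shRNA cells. The groups were tight and separate, and the PIK3CA shRNA mean was 80.4% of that in control shRNA cells (log2 change -0.30, SE 0.05, limma adjusted p = 0.0239). The Plod1 call was lost without any 1 of the 6 arrays, at limma adjusted p between 0.0719 and 0.0855, and in the fit over probe sets. On the mean of the Plod1 probe sets the change was -0.17 (limma adjusted p = 0.740). Over all alternatives the Plod1 change came as near to 0 as -0.03, and its limma adjusted p reached 0.980. Plod2, which acts on the telopeptides, gave 1354, 1140 and 1313 in PIK3CA shRNA cells, against 1126, 1131 and 1232 in control shRNA cells (log2 change 0.12, 95% interval -0.10 to 0.34, limma adjusted p = 0.466). Plod3, which also adds sugars to hydroxylysine, had a change of -0.09 (95% interval -0.27 to 0.09).

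All 3 prolyl 4-hydroxylase alpha subunits had changes below 0, and none passed in limma. P4ha2 came nearest, with 235, 215 and 259 in PIK3CA shRNA cells, against 361, 296 and 317 in control shRNA cells, without overlap (log2 change -0.43, SE 0.10, limma adjusted p = 0.0569). P4ha1, the main subunit in most cells, overlapped between the groups (log2 change -0.12, 95% interval -0.38 to 0.13), as did P4ha3 (-0.23). The beta subunit P4hb, which is no member, averaged 5948 ± 94.2 in PIK3CA shRNA cells and 6862 ± 339 in control shRNA cells (SD, n = 3 each; log2 change -0.20, limma adjusted p = 0.104).

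Of the lysyl oxidases 4 were measured, 0 rose and 0 fell at adjusted p 0.05 in limma. Loxl4 was lower on every PIK3CA shRNA array, at 299, 192 and 263, against 482, 357 and 508 in control shRNA cells, and stood just outside the threshold (log2 change -0.81, SE 0.20, limma adjusted p = 0.0644). The second Loxl4 probe set was also lower on every PIK3CA shRNA array, by less (log2 change -0.32, limma adjusted p = 0.292 over all probe sets). Loxl1, needed for elastic fibres, was higher on every PIK3CA shRNA array, at 105, 101 and 108 against 92.2, 85.1 and 60.1 in control shRNA cells, and did not pass (log2 change 0.36, limma adjusted p = 0.188). Lox itself was dim and its arrays overlapped, with 24.7, 19.5 and 5.40 in PIK3CA shRNA cells against 37.7, 16.4 and 45.9 in control shRNA cells (log2 change -0.60, 95% interval -1.45 to 0.25). The other 2 Lox probe sets, also dim and overlapping, had the opposite sign, with changes of 0.19 and 0.28. Loxl3 had a change of 0.03 (95% interval -0.41 to 0.48).

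The probe sets of one gene did not always move alike. Several probe sets were available for 10 of the 11 called genes. In 3 of these, Serpinh1, Col18a1 and Col4a4, another probe set was called in the same direction. In 9 of the 10 all other probe sets had the same sign, and in 1, Col25a1, another had the opposite sign.

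**Figure D5:**
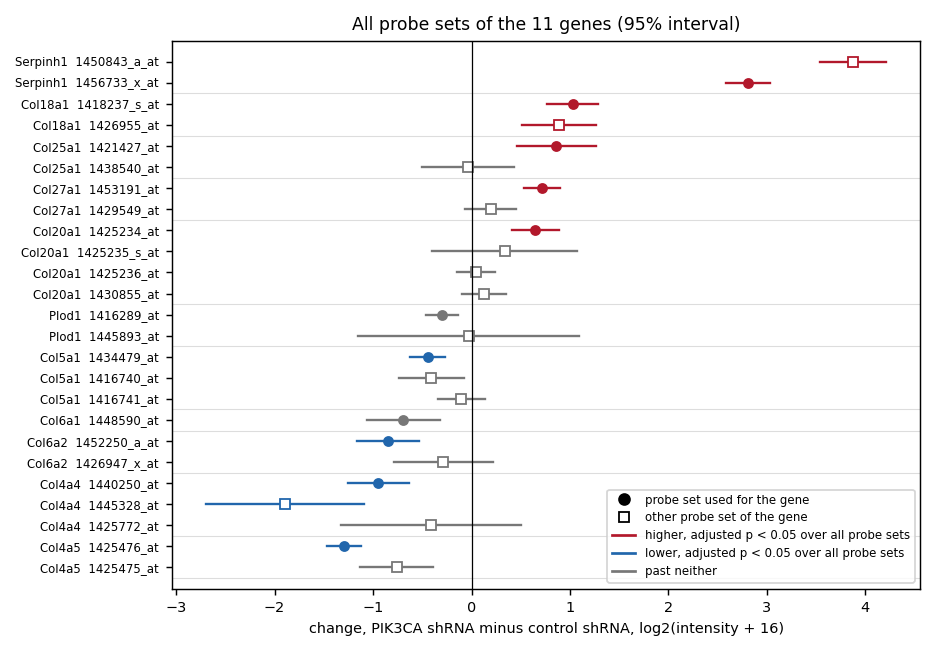
Change with 95% interval, log2(intensity + 16), PIK3CA shRNA minus control shRNA, of every probe set of the 11 called genes, from limma over 45037 probe sets. Filled circles are the probe sets used for the gene, open squares the others, red is called higher, blue called lower and grey neither. Both Serpinh1 probe sets lie far to the right, at 3.88 and 2.81, and the Col25a1 pair is split, at 0.86 and -0.04.

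Other genes of the collagen route were counted from lists. Of 23 measured genes for folding, modification and export of procollagen, 1 rose and 5 fell (26.1% called), with a median change of -0.01. Called were 11.5% of all genes and 17.8% of those above the median intensity, as 17 of the 23 were. The one that rose was P3h4, a partner of the prolyl 3-hydroxylase and lysyl hydroxylase complex in the endoplasmic reticulum, at 302 ± 41.7 in PIK3CA shRNA cells and 90.2 ± 9.57 in control shRNA cells (SD, n = 3 each; log2 change 1.58, limma adjusted p = 0.00221). Those that fell were Sec24d (-0.57), a coat protein of vesicles leaving the endoplasmic reticulum, Kdelr2 (-0.45), a retrieval receptor, Mia3 (-0.43), which loads procollagen into such vesicles, Calr (-0.40), a lectin chaperone, and Lman1 (-0.39), a cargo receptor, at limma adjusted p of 0.00537 to 0.0316. The Calr change was -0.20 with chromosome medians taken out, at a limma adjusted p of 0.166.

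Of 15 measured genes for processing and fibril assembly 1 rose and 2 fell (20.0% called), with a median of -0.16. The share called among all genes, 11.5%, stands beside this list and those that follow, which are short. Sparc, a collagen-binding matrix protein, averaged 1578 ± 34.5 in PIK3CA shRNA cells and 1035 ± 90.5 in control shRNA cells (SD, n = 3 each; log2 change 0.60, limma adjusted p = 0.0110). Pcolce, the enhancer of the C-proteinase that trims procollagen, averaged 3969 ± 19.1 in PIK3CA shRNA cells and 5324 ± 47.0 in control shRNA cells (log2 change -0.42, limma adjusted p = 0.00809). Dcn, the small proteoglycan decorin and also 1 of the 12 fibroblast markers, was dim (log2 change -0.75, limma adjusted p = 0.00918). Of 9 measured receptor and uptake genes 2 rose and 0 fell (22.2% called, median 0.16), the collagen-binding integrin chains Itga1 (2.70) and Itga2 (1.17). Of 10 collagen-degrading proteases 1, the collagenase Mmp13 (1.69), rose and 0 fell (10.0% called, median 0.09).

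Promoters in the RefSeq table were matched for 40 of the 53 members by symbol and covered 43 windows. GC boxes were in 28 of the 43 (65.1%), against 35.7% of all 32851 promoters, and CCAAT boxes in 14 (32.6%), against 37.4%. TATAAA was in 7 (16.3%), against 13.6%, and the forkhead motif GTAAACA in 1, that of Col6a1, against 3.65%. Each motif was searched on both strands, the windows of Col4a1 and Col4a2 share bases, and no change in expression was tested against a motif.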

How the data were processed

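RNA of 344SQ cells was measured on 6 Affymetrix arrays, 3 with PIK3CA shRNA and 3 with control shRNA, grouped by the labels. The authors deposited linear intensities for every probe set of each array, between 0.0359 and 17918.54 and already brought to a common distribution by a method not given in the sources used here. No detection calls were used, and 15.0% of values were below 16. The number of arrays limits the precision.

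Of 45101 probe sets, 64 array controls were left out. Names came from the platform annotation: 34945 probe sets had 1 symbol, 932 several and 9160 none, and 34741 matched a RefSeq table of GRCm38.p6 by gene identifier, which changed 0 symbols. Arrays were scaled to the same median, and log2(intensity + 16) was used. The probe set with the highest mean log2 value stood for each gene. The comparison was a two-sided limma test (limma 3.58.1, R 4.3.3, lmFit then eBayes) without a block, adjusted by Benjamini-Hochberg over 18193 genes, and a second one ran over 45037 probe sets. Differences between gene pairs used exact permutation tests over 20 assignments. The steps were tested on simulated data.

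The members, lists and tests were chosen with earlier results of these data known. Genes named were Pik3ca, members past the threshold in either fit, the 12 brightest members, all modifying enzymes and up to 6 called genes per further list. Other members and genes were named after their values were seen. Alternatives were pseudocounts of 1 and 64, other scalings, probe set choices and filters, an intensity trend with a robust prior, array weights, chromosome medians, a replicate block and leaving out each array.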

Additional observations from a re-analysis of the deposited data

How the results depend on the processing

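Of the 11 called members, 4 (Serpinh1, Col18a1, Col27a1 and Col4a5) stayed called in the same direction in all 17 alternatives. Their changes were 2.68 to 3.88, 0.94 to 1.11, 0.46 to 0.75 and -1.33 to -1.03, with highest limma adjusted p of 0.0130, 0.0328, 0.0420 and 0.0192. None of the 11 reversed its sign. Under the replicate block Col4a4, Col5a1, Col6a1, Col6a2, Col20a1 and Plod1 lost their calls, at limma adjusted p of 0.0544 to 0.116, and Loxl4 was called lower (limma adjusted p = 0.0484). The main counts were 2093 genes, with 5 members higher and 6 lower, and 2225 probe sets, with 7 member probe sets higher and 5 lower. Leaving out 1 array in turn gave 945 to 1138 genes, 3 to 5 members higher, 3 to 5 lower, 731 to 1015 probe sets, 4 to 6 member probe sets higher and 1 to 3 lower. The intensity trend with a robust prior gave 3192 genes, 4672 probe sets and 9 member probe sets lower. A pseudocount of 64 gave 3631 probe sets and 9 member probe sets lower. With dim genes left out, and with the mean of a gene's probe sets, 3 members were higher. The probe set of largest interquartile range gave 3 members lower. Over all genes, replicate numbers did not pair the arrays (correlations of same-numbered deviations 0.05, -0.02 and -0.02), although Col15a1 was highest on replicate 2 in both groups. The replicate block gave 413 genes, 185 probe sets, 2 members lower, 2 member probe sets higher and 1 lower. The causes of these shifts were not tested, except that leaving out an array and adding the replicate block each also remove residual degrees of freedom. The pseudocount compresses the changes of dim members, most of all those below 16, but also those of the dim called members Col4a4, Col20a1 and Col25a1. For example, the mean of Col25a1 was 2.03-fold higher in PIK3CA shRNA cells, while its log2 change was given as 0.86.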

Other observations

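HSP47 is grouped with the heat shock proteins by its name, and the other heat shock proteins and their cochaperones were therefore counted from a list chosen after the values were seen. Of 17 measured genes 0 rose and 4 fell, with a median change of -0.13, against -0.01 over all genes. The 4 are 23.5% of the list, against 11.5% of all genes called and 17.8% of genes above the median intensity, as 14 of the 17 were. Hsph1, a large HSP70 cochaperone, averaged 2514 ± 112 in PIK3CA shRNA cells and 3931 ± 62.9 in control shRNA cells (SD, n = 3 each; log2 change -0.64, limma adjusted p = 0.00365). Dnajb1, an HSP40 cochaperone, averaged 1761 ± 45.1 in PIK3CA shRNA cells and 2385 ± 15.2 in control shRNA cells (log2 change -0.43, limma adjusted p = 0.00864). The inducible HSP70 gene Hspa1a (log2 change -0.31, limma adjusted p = 0.0350) and Hspa4l (-0.34, limma adjusted p = 0.0289) also fell. Serpinh1, at 2.81, was not on the list. A list chosen after the values were seen serves as a description only, and the cause of the Serpinh1 rise was not tested.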
